A study of Mus musculus with 12 samples.

Results

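The genes described are 39 genes of liver endothelial cells, together with signals that these cells send to hepatocytes, followed in sorted hepatocytes of p16-Tom mice. They were taken by name from a list of sinusoidal and vascular endothelial genes with the angiocrine ligands Wnt2, Wnt9b, Rspo3 and Bmp2. No threshold on measured values was used, but the list was chosen with earlier results of these data known. All 39 were found among the 54839 features of the table, and all 39 were among the 17121 genes that passed the filter on low counts.

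Liver sinusoids are lined by a fenestrated endothelium without an organized basement membrane, which clears waste macromolecules from blood through scavenger receptors such as Stab1 and Stab2. Endothelial cells near the central vein release Wnt2, Wnt9b and Rspo3, which keep beta-catenin signaling active in the neighbouring hepatocytes, and Bmp2 and Bmp6 from sinusoidal endothelium act on hepatocytes to induce the iron hormone hepcidin. In chronic injury the sinusoidal endothelium loses its fenestrae and gains features of ordinary capillaries, a process called capillarization, for which Cd34, Plvap and Vwf are commonly used markers.

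Bulk RNA-seq was performed on 12 libraries of Tom+ and Tom- hepatocytes in 4 groups of 3, Tom- oil, Tom+ oil, Tom- CCl4 and Tom+ CCl4. All mice were male, heterozygous p16-Tom mice on a C57BL/6 background, in which CreERT2 is driven by p16Ink4a and tamoxifen (80 mg/kg) turns on tdTomato in p16Ink4a-expressing cells, so that any cell type that expresses p16Ink4a can be labelled. The oil groups received corn oil and the CCl4 groups received CCl4, a solvent toxic to hepatocytes around the central vein, at 1 mL/kg for 4 weeks, and no age was given for the mice. Cells were released by collagenase perfusion, enriched for hepatocytes by low-speed centrifugation and sorted alive by tdTomato fluorescence, so that endothelial RNA in these libraries comes from a hepatocyte sort. Nothing stated that libraries of a group came from separate mice, and p-values therefore measure the spread between these libraries.

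The depth of the libraries ranged from 37568584 to 75331424 counts, at which 3 counts correspond to 0.0369 to 0.0829 CPM (counts scaled to library size with TMM factors), a floor that covers counting error only. Hepatocyte markers were far above the endothelial genes: 8 hepatocyte markers summed to 90340 to 136996 CPM, against 375 to 968 CPM for the 39 endothelial and angiocrine genes. The reporter went against the label in 2 libraries, Tom- oil replicate 1 (1794 CPM) and Tom+ oil replicate 2 (135 CPM), while the other Tom- libraries had 120 to 263 CPM and the other Tom+ libraries 1225 to 1546 CPM. Counts of calls that use oil libraries are therefore also given without these 2.

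First, the summed level of the 39 genes was compared among groups. It was 968, 957 and 936 CPM in the 3 Tom- CCl4 libraries and 469, 558 and 650 CPM in the 3 Tom+ CCl4 libraries. In oil it was 473, 375 and 547 CPM in Tom- and 564, 405 and 662 CPM in Tom+. The Tom- CCl4 libraries thus stood above all other libraries without overlap, and the Tom+ CCl4 libraries lay in the range of the oil libraries. In such bulk samples, fewer endothelial cells and less endothelial RNA per cell cannot be told apart. The 12 Kupffer cell and macrophage markers, summed in the same way, had 148, 144 and 179 CPM in Tom- CCl4 and 87.5, 81.2 and 240 CPM in Tom+ CCl4. The 11 stellate cell and fibroblast markers had 77.7, 96 and 98.7 CPM and 56.2, 86.9 and 113 CPM in these groups. Between Tom+ and Tom- with CCl4 both marker sums overlapped, whereas that of the endothelial genes did not. The sum of the hepatocyte markers did not overlap either, at 126380 to 136996 CPM in Tom- and 97577 to 108173 CPM in Tom+. In oil that sum was 90340 to 120928 CPM in Tom- and 107828 to 117620 CPM in Tom+. Separation of the Tom- CCl4 libraries was thus not particular to the endothelial genes. With oil, the Kupffer cell markers were at 20.6, 26.6 and 111 CPM in Tom- and 39.6, 34.5 and 168 CPM in Tom+, and the stellate cell markers at 8.57, 9.01 and 21.4 CPM and 17.4, 10.3 and 28.8 CPM. Replicate 3 was the highest of each oil group for both lists and also for the endothelial genes. Of the Kupffer cell markers 0 were at 0 counts in any library, and of the stellate cell markers at most 1. Between Tom+ and Tom- with CCl4, 0 of 12 Kupffer cell markers and 0 of 10 stellate cell markers tested were called in edgeR's test (0 and 0 at an unadjusted p under 0.05). With the replicate pair as a block, 1 Kupffer cell marker was called lower. Of all genes, 1.74% were called lower and 0.222% higher in edgeR's test, and 3.25% lower with that block. With CCl4 against oil, 7 stellate cell markers rose in Tom- and 5 in Tom+, where 6.33% and 2.9% of all genes were called higher. By edgeR, 0 Kupffer cell markers were called in Tom- and 0 in Tom+ (0 and 1 at an unadjusted p under 0.05). Of all genes, 4.32% and 2.09% were called higher without the 2 oil libraries. The counts were then 8 and 5 for the stellate cell markers and 0 and 0 for the Kupffer cell markers. Even so, all 12 Kupffer cell values were positive in Tom-, with a median log2 fold change of 1.499 against 1.17 for the 39 genes. For 7 of these markers every Tom- CCl4 library was above every Tom- oil library, against 19.3% of all genes. In Tom+, 11 of the 12 values were positive with a median of 0.578. There 0 markers separated in this way, against 14.6% of all genes. With the replicate number as a block, 11 were called in Tom- and 2 in Tom+, although oil and CCl4 libraries share only that number. The share of all genes called in that fit is not given. The part of other cell types in the results below was not tested.

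**Figure D1:**
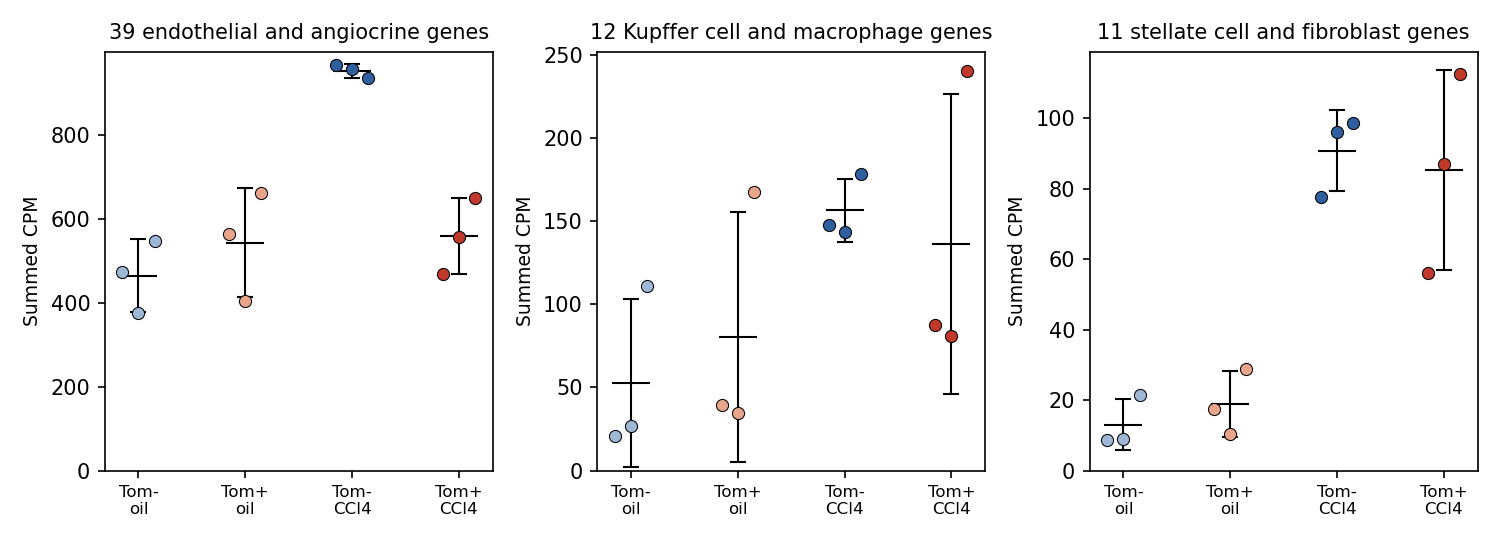
Summed TMM-normalized CPM of the 39 endothelial and angiocrine genes and of the marker lists for Kupffer cells and macrophages and for stellate cells and fibroblasts, by group. Points are libraries in the order of replicates 1 to 3, and bars are mean ± SD (n = 3). The endothelial sum is highest in the 3 Tom- CCl4 libraries (936 to 968 CPM), while both other lists overlap between Tom- CCl4 and Tom+ CCl4.

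Next, CCl4 was compared with oil in each fraction. A gene was called at a Benjamini-Hochberg adjusted p under 0.05 and a log2 fold change beyond 0.75. In Tom- hepatocytes, 32 of the 39 genes rose with CCl4 and 0 fell, where 6.33% of all genes tested were called higher and 1.59% lower. All 39 fold changes were positive with a median log2 fold change of 1.17 (2.25-fold), and the median over all genes was 0.0046. The groups did not overlap for 36 of the 39 genes, against 19.3% of all genes. Without the 2 oil libraries whose reporter went against the label, 29 were called with a median of 1.15, where 4.32% of all genes were called higher and 1.14% lower. Of the 32 genes, 26 were called in all 19 alternatives of filter, test, block and libraries. The alternative that uses the adjusted p without the fold change threshold cannot lose a call. Some others leave out only libraries outside the comparison, here and in the tallies below. The 7 genes not called were Wnt2, Wnt9b, Rspo3, Bmp2, Gata4, Vwf and Ramp2.

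In Tom+ hepatocytes, Plvap was the 1 gene of the 39 called higher and 0 were called lower, where 2.9% of all genes were called higher and 2.34% lower. The median log2 fold change was 0.10, 25 genes had positive and 14 negative values. For 3 genes every CCl4 library was above every oil library, against 14.6% of all genes. Without the 2 oil libraries, 0 were called and the median was -0.05, where 2.09% of all genes were called higher and 1.42% lower. The count was also 0 without Tom+ oil replicate 1 and 0 without Tom+ CCl4 replicate 3. It was 2, 2 and 2 without Tom- oil replicate 1, Tom- oil replicate 3 and Tom+ CCl4 replicate 1, and 3 without Tom+ oil replicate 3.

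Tom+ and Tom- hepatocytes were then compared within each treatment. With CCl4, 15 of the 39 genes were lower in Tom+ and 0 higher, where 1.74% of all genes were called lower and 0.222% higher. Fold changes were negative for 37 of the 39, with a median log2 fold change of -0.80 (1.74-fold lower) against 0.0042 over all genes. For 33 genes every Tom+ library was below every Tom- library, against 14.6% of all genes. The direction was seen in each same-numbered pair: Tom+ was lower for 37, 37 and 36 of 39 genes in pairs 1, 2 and 3, with median log2 ratios of -1.12, -0.80 and -0.54. A fit with the pair as a block called 22 genes lower and 0 higher, where 3.25% of all genes were called lower and 0.736% higher in that fit. The count of calls depended on single libraries: it was 4, 1 and 8 without Tom- CCl4 replicates 1, 2 and 3, and 2, 0 and 12 without Tom+ CCl4 replicates 1, 2 and 3. Each of the 15 genes was called in 11 to 18 of 19 alternatives, among them those that left out only oil libraries and so kept every library compared. The median stayed between -0.92 and -0.71 when any library was left out.

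With oil, 0 of the 39 genes were called between Tom+ and Tom-, as were 0% of all genes higher and 0% lower in edgeR's test, and 0 of the 39 by DESeq2. An unadjusted p under 0.05 was found for 4 of the 39. The sign was mostly opposite to that with CCl4, as 35 genes had positive values, with a median of 0.26. Without the 2 oil libraries whose reporter went against the label, the median was 0.43 with 0 called.

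The interaction asks whether the difference between fractions changed with treatment. It was called for 7 of the 39 genes, all negative, where 0.958% of all genes were called negative and 0.216% positive. The values were -1.35 for Gpr182, -1.39 for Flt1, -1.16 for Flt4, -1.25 for Ptprb, -1.09 for Eng, -1.41 for Cdh5 and -2.13 for Sox17, and the median over the 39 was -1.03. With the pair as a block, 32 of the 39 were called negative, where 4.19% of all genes were called negative and 1.28% positive in that fit. Without the 2 oil libraries 12 of the 39 were called negative, where 0.496% of all genes were called negative and 0.354% positive. Leaving out Tom- oil replicate 1 or 2, Tom+ oil replicate 1, Tom- CCl4 replicate 2 or Tom+ CCl4 replicate 2 left 0 calls. Without Tom+ CCl4 replicate 1 there was 1, and without Tom- CCl4 replicate 1, Tom- CCl4 replicate 3 and Tom+ CCl4 replicate 3 there were 3, 3 and 3. Without Tom+ oil replicate 3 there were 4, and without Tom+ oil replicate 2 there were 15. The median stayed between -1.25 and -0.85 across these.

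Same-numbered Tom+ and Tom- libraries were also summed, and CCl4 was compared with oil over the sums. Of the 38 genes that passed the filter in this fit (Wnt9b did not), 8 rose and 0 fell, where 3.34% of all genes were called higher and 1.44% lower. All 38 values were positive with a median log2 fold change of 0.58, and 20 genes did not overlap, against 17.2% of all genes. The 8 were Cldn5 (0.88), Emcn (1.04), Wnt2 (2.03), Erg (0.96), Cd34 (2.03), Vwf (2.54), Plvap (1.97) and Egfl7 (0.8). Without the 2 oil libraries, oil replicates 1 and 2 were each a single library of 1 fraction, set against CCl4 sums of both fractions. That fit is thus no longer a comparison of summed pairs throughout. It called 1 gene, where 1.91% of all genes were called higher and 0.874% lower. The count was 3, 2 and 13 without oil replicates 1, 2 and 3, and 2 and 3 without CCl4 replicates 2 and 3.

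**Figure D2:**
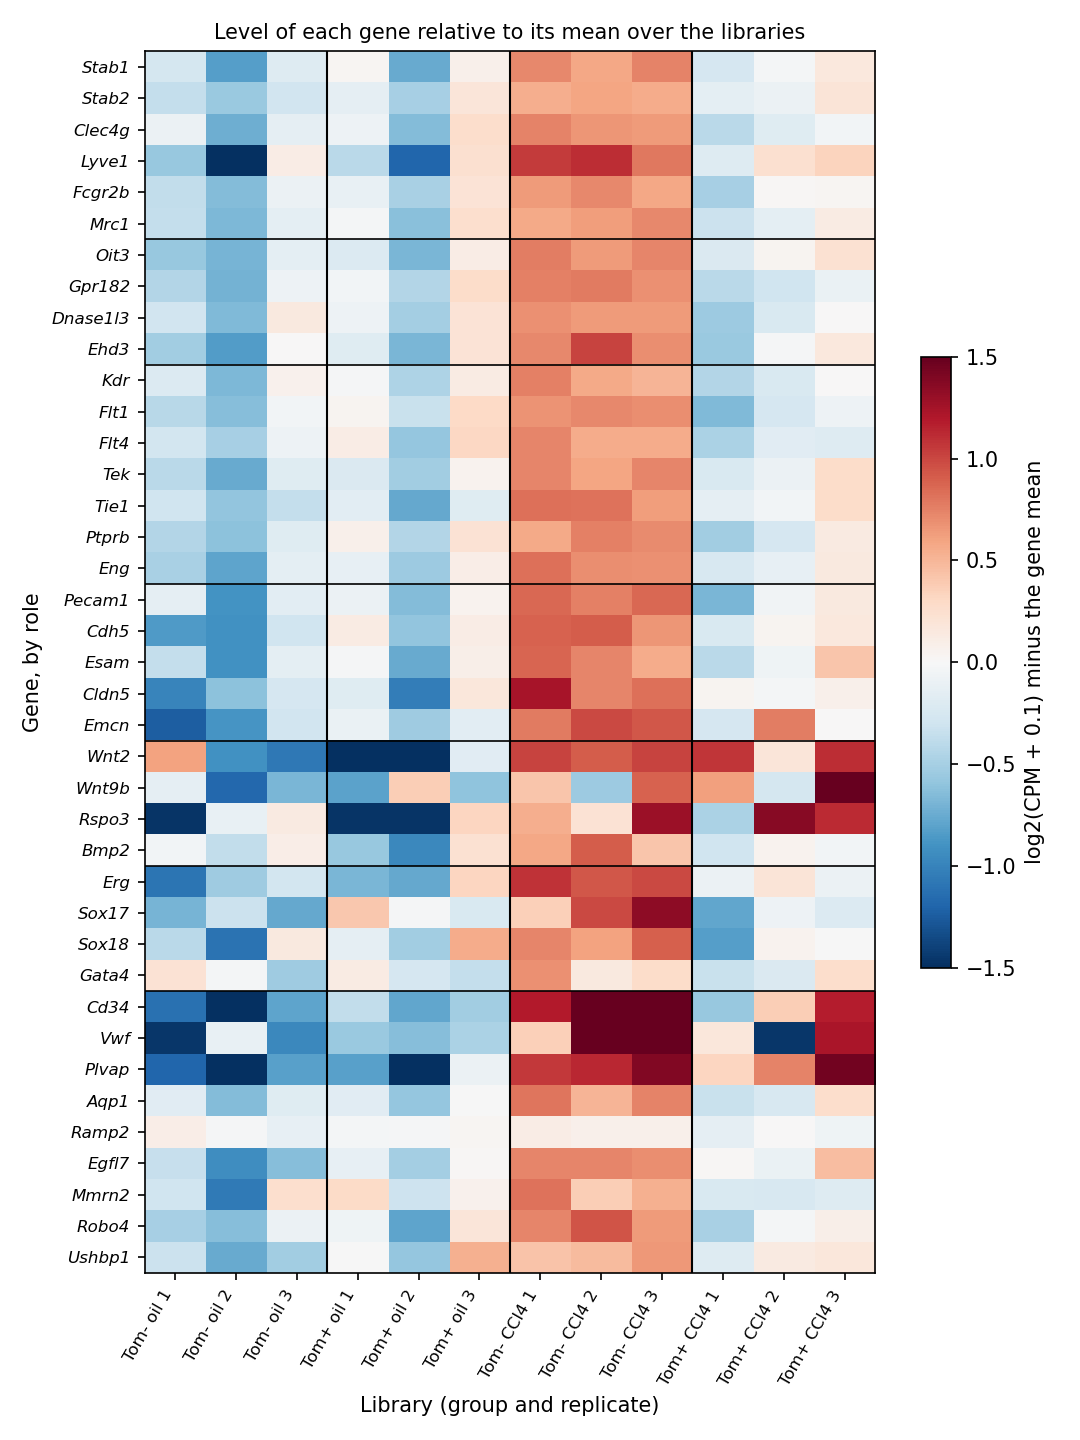
Heat map of the 39 genes (rows, grouped by role) in the 12 libraries (columns). The color is log2(CPM + 0.1) minus the mean of the gene over the libraries, with the color scale ending at -1.5 and 1.5. Most rows are highest in the 3 Tom- CCl4 libraries, whereas Ramp2 is nearly flat.

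The scavenger and endocytic receptors were considered first. All 6 rose with CCl4 in Tom- hepatocytes, with log2 fold changes of 1.08 for Stab1, 0.96 for Stab2, 0.98 for Clec4g, 1.51 for Lyve1, 0.99 for Fcgr2b and 1.02 for Mrc1. The Lyve1 call was kept in 8 of 19 alternatives (adjusted p up to 0.106), and it was lost without any 1 of the Tom- CCl4 libraries, without Tom- oil replicate 1 (1.48, adjusted p = 0.106) and without Tom- oil replicate 2 (1.18, adjusted p = 0.0696). In Tom+ hepatocytes 0 of the 6 were called, and their values ranged from -0.10 to 0.49 (lowest adjusted p = 0.527). Stab2, which takes up hyaluronan, was at 33.4, 28.9 and 35 CPM in Tom- oil, 38.9, 30.2 and 48.2 in Tom+ oil, 62.1, 64.5 and 62.9 in Tom- CCl4 and 38.4, 40.1 and 48.6 CPM in Tom+ CCl4. The 3 Tom- CCl4 libraries were thus above all others for Stab2. Clec4g, a C-type lectin known as LSECtin, was at 19, 12.2 and 18.5 CPM in Tom- oil, 19.3, 12.9 and 24.3 in Tom+ oil, 34, 32.2 and 31.7 in Tom- CCl4 and 15.3, 17.9 and 19.7 CPM in Tom+ CCl4. It was lower in Tom+ with CCl4 by a log2 fold change of -0.89 ± 0.21 (adjusted p = 0.0312), where ± gives the SE here and below. Fcgr2b, the inhibitory Fc receptor that clears immune complexes, had -0.78 ± 0.19 (adjusted p = 0.0327). The other 4 receptors ranged from -0.85 to -0.58 in this comparison and were not called. Stab2 (adjusted p = 0.034) and Mrc1 (adjusted p = 0.046) passed the adjusted p but not the threshold of fold change. With the pair as a block, Lyve1 (-0.86, adjusted p = 0.000859) and Mrc1 (-0.76, adjusted p = 0.000138) were called as well. Mrc1, the mannose receptor, and Lyve1 are also expressed by macrophages.

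Other genes enriched in sinusoidal endothelium differed by similar amounts. Gpr182, a decoy receptor for chemokines (ENSMUSG00000058396, mm10 chr10:127747276-127751732), was at 16.6, 13.7 and 21.4 CPM in Tom- oil, 21.8, 16.6 and 27.3 in Tom+ oil, 38, 38.8 and 36.3 in Tom- CCl4 and 17, 18.3 and 21 CPM in Tom+ CCl4. The Tom- CCl4 libraries were the highest, and Tom+ CCl4 overlapped both oil groups. A gene on the opposite strand that overlaps Gpr182 had 7951 counts over all libraries, against 13717 for Gpr182, and the strand setting of the counting was not given. Gpr182 had the lowest adjusted p among the 39 genes between fractions with CCl4, at -1.01 ± 0.18 (adjusted p = 0.00929), and rose with CCl4 in Tom- by 1.13 ± 0.18 (adjusted p = 0.00164). Dnase1l3, a secreted DNase, rose by 0.88 in Tom- and was lower in Tom+ with CCl4, at -0.89 ± 0.21 (adjusted p = 0.0322). Oit3 and Ehd3, an endocytic recycling protein, rose in Tom- by 1.17 and 1.22. Between fractions with CCl4, Oit3 had -0.69 (adjusted p = 0.0492) and Ehd3 -0.92 (adjusted p = 0.0715), and with the pair as a block Ehd3 was called (-0.95, adjusted p = 0.000138). In Tom+ the 4 genes had values from -0.22 to 0.25 with CCl4, and 0 were called.

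The growth factor receptors comprise the receptors for VEGF (Kdr, Flt1, Flt4) and angiopoietin (Tek), with its partner Tie1, the phosphatase Ptprb that restrains Tek, and Eng, a co-receptor for BMP ligands. All 7 rose with CCl4 in Tom-, by 0.86 for Kdr, 1.05 for Flt1, 0.89 for Flt4, 1.13 for Tek, 1.18 for Tie1, 1.09 for Ptprb and 1.19 for Eng. With CCl4, 5 of the 7 were lower in Tom+: Kdr had -0.83 ± 0.19 (adjusted p = 0.0271), Flt1 -1.02 ± 0.19 (adjusted p = 0.0113), Flt4 -0.89 ± 0.19 (adjusted p = 0.0182), Ptprb -0.87 ± 0.19 (adjusted p = 0.0203) and Eng -0.8 ± 0.17 (adjusted p = 0.021). Tek -0.69 (adjusted p = 0.0472) and Tie1 -0.72 (adjusted p = 0.0284) passed the adjusted p but not the threshold of fold change. Flt1 was at 6.67, 5.7 and 8.72 CPM in Tom- oil, 9.22, 7.08 and 11.1 in Tom+ oil, 14.3, 14.8 and 14.6 in Tom- CCl4 and 5.6, 7.51 and 8.47 CPM in Tom+ CCl4. Kdr, the main signaling receptor for VEGF, was at 32.8, 23.7 and 39.4 CPM in Tom- oil, 37.2, 27.4 and 41.2 in Tom+ oil, 64.2, 56.3 and 53.8 in Tom- CCl4 and 27.8, 32.4 and 38.1 CPM in Tom+ CCl4. For both receptors the Tom- CCl4 libraries were separate from all the others. Of the 7 interaction calls, 4 (Flt1, Flt4, Ptprb and Eng) were in this group. Eng overlaps a gene on the opposite strand with 137269 counts over all libraries, so that its level is less certain.

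The promoters of 4 genes are shown so that the start of genes with the same direction of change can be set beside that of a ligand: Flt1, Kdr and Robo4, which rose in Tom- with CCl4 and were lower in Tom+ with CCl4, and Wnt2, which overlapped between fractions. They are RefSeq promoters (GRCm38.p6), from 250 bases before to 50 bases after the start, at chr5:147725962-147726261 (minus strand), chr5:75978406-75978705 (minus strand), chr9:37401722-37402021 (plus strand) and chr6:18030396-18030695 (minus strand). Capitals mark AGGAAG, letters often found in binding sites of ETS factors such as Erg, or their reverse complement.
Flt1: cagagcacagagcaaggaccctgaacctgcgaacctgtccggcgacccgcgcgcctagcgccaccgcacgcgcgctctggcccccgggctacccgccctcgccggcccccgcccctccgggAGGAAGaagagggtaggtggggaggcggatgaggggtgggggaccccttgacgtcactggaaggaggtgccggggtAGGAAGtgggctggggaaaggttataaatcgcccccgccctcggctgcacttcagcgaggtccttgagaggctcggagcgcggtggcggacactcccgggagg
Kdr: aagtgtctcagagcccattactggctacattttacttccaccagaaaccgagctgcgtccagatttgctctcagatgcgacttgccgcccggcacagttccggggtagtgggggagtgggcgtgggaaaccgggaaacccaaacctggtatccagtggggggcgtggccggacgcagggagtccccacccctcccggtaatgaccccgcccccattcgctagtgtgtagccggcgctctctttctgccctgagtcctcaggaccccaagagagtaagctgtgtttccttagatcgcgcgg
Robo4: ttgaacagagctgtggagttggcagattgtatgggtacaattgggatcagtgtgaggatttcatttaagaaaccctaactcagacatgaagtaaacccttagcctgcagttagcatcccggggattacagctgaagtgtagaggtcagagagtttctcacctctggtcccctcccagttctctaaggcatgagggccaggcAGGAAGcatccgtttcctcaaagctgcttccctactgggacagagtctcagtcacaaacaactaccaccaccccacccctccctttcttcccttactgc
Wnt2: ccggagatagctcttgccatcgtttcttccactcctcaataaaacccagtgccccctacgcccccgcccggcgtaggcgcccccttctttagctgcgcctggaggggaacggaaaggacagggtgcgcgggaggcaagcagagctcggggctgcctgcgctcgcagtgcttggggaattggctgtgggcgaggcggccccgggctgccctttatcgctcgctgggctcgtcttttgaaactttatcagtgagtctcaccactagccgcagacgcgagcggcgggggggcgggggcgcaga
A promoter was found for 22 of the 39 genes (26 promoters), and of 32851 RefSeq promoters 35.4% hold AGGAAG on either strand. The letters were in 61.5% of the 26 promoters, from 15 of the 22 genes, among them Flt1 with 2 matches and Robo4 with 1. Kdr and Wnt2 had 0 matches in this window. In all, 11 strings were searched on both strands. The share with CGGAAG was 7.7% against 16.9% of all promoters, with GGAAG, which is part of both, 80.8% against 71.4%, and with AGGAA, which overlaps AGGAAG, 76.9% against 66.7%. For letters of SOX factors, ACAAT was in 30.8% against 31%, AACAAT, which contains it, in 15.4% against 10.7%, and ACAAAG in 15.4% against 18.7%. For GATA factors, AGATAA was in 7.7% against 11.2% and TGATAA in 11.5% against 9.1%. The letters TGACTCA of AP-1 were in 0% against 5.2%, and TATAAA in 11.5% against 13.6%. These shares describe letters and not binding.

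Junction and adhesion genes hold the endothelial sheet together. All 5 rose in Tom- with CCl4, by 1.2 for Pecam1, 1.49 for Cdh5, 1.18 for Esam, 1.57 for Cldn5 and 1.76 for Emcn. Cdh5, the cadherin of endothelial junctions, was at 8.81, 8.47 and 12.9 CPM in Tom- oil, 17.3, 10.5 and 17.2 in Tom+ oil, 29.4, 30.1 and 25.2 in Tom- CCl4 and 13.5, 16.4 and 17.7 CPM in Tom+ CCl4. The Tom- CCl4 libraries were separate from all others, while the Tom+ groups overlapped. With CCl4, Cdh5 was lower in Tom+, at -0.83 ± 0.2 (adjusted p = 0.0316), and so was Pecam1, an adhesion molecule also found on platelets and leukocytes, at -1.0 ± 0.24 (adjusted p = 0.0343). Esam had -0.72, Cldn5 -0.94 and Emcn -0.7 without being called, and Cldn5 was called with the pair as a block (-0.93, adjusted p = 0.0098). In Tom+, 0 of the 5 were called between CCl4 and oil, with values from 0.04 to 0.52.

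Among the 4 transcription factors, Erg, an ETS factor that maintains endothelial identity, rose with CCl4 in Tom- by 1.63 ± 0.29 (adjusted p = 0.00281). Sox17 and Sox18, which act in vessel development, rose by 1.67 ± 0.34 (adjusted p = 0.00631) and 1.16 ± 0.35 (adjusted p = 0.0394), of which the Sox18 call was kept in 12 of 19 alternatives (adjusted p up to 0.128). Sox17 was at 0.607, 0.814 and 0.572 CPM in Tom- oil, 1.42, 1.03 and 0.881 in Tom+ oil, 1.37, 2.18 and 2.81 in Tom- CCl4 and 0.566, 0.982 and 0.898 CPM in Tom+ CCl4. Its Tom+ oil libraries overlapped Tom- CCl4 and were all above Tom- oil. Sox17 had the largest difference between fractions with CCl4 among the 15 called genes, at -1.39 ± 0.34 (adjusted p = 0.0309), and the most negative interaction of the 39. Erg was at 7.38, 6.63 and 6.89 CPM in Tom- CCl4 and 3.22, 3.93 and 3.21 CPM in Tom+ CCl4, at -1.01 ± 0.28 (adjusted p = 0.0491). Sox18 had -1.0 (adjusted p = 0.106) and was called with the pair as a block (-1.04, adjusted p = 0.00448). Gata4, needed for the sinusoidal program, was not called in any comparison. Its levels were 7.33, 6.18 and 4.31 CPM in Tom- oil, 6.85, 5.27 and 4.87 in Tom+ oil, 10.2, 6.97 and 7.65 in Tom- CCl4 and 4.98, 5.39 and 7.6 CPM in Tom+ CCl4, and for CCl4 in Tom- its log2 fold change was 0.48 (95% interval -0.01 to 0.97).

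The capillary genes Plvap, Cd34 and Vwf had the largest values for CCl4 in Tom-. Plvap, the protein of the diaphragms that close fenestrae (ENSMUSG00000034845, mm10 chr8:71497765-71511752), was at 2.11, 1.47 and 2.76 CPM in Tom- oil, 2.76, 1.66 and 4.63 in Tom+ oil, 10.3, 10.9 and 13 in Tom- CCl4 and 6.19, 8.32 and 13.5 CPM in Tom+ CCl4. Both CCl4 groups were above both oil groups without overlap, and the CCl4 groups overlapped each other. A gene on the opposite strand that overlaps Plvap had 6703 counts over all libraries, against 3709 for Plvap, so that its level is less certain. Its log2 fold change with CCl4 was 2.43 ± 0.38 (adjusted p = 0.00221) in Tom- and 1.64 ± 0.37 (adjusted p = 0.0171) in Tom+, and between fractions with CCl4 it was -0.29 (95% interval -1.06 to 0.47). The Tom+ call was lost without the 2 oil libraries (1.36, adjusted p = 0.0699), without Tom+ oil replicate 1 (1.58, adjusted p = 0.0782), without Tom+ CCl4 replicate 3 (1.28, adjusted p = 0.0632) and with the 6 libraries alone (1.64, adjusted p = 0.0589). Cd34, a sialomucin of capillary endothelium, was at 0.369, 0.155 and 0.490 CPM in Tom- oil, 0.693, 0.496 and 0.612 in Tom+ oil, 2.22, 3.15 and 3.34 in Tom- CCl4 and 0.591, 1.22 and 2.21 CPM in Tom+ CCl4. It rose in Tom- by 3.1 ± 0.49 (adjusted p = 0.00143), while in Tom+ the groups overlapped, at 1.14 (adjusted p = 0.138). For the fractions with CCl4 it had -1.13 (adjusted p = 0.14), and it was called with the pair as a block (-1.26, adjusted p = 0.0135). Vwf, which carries a clotting factor and is stored in large-vessel endothelium, had 0 to 8 counts in Tom- oil and 10 to 56 in Tom- CCl4. Its levels were 0.253, 0.774 and 1.18 CPM in Tom- CCl4 and 0.209, 0 and 0.543 CPM in Tom+ CCl4. For CCl4 in Tom- it had 3.37 ± 1.09 (adjusted p = 0.0503).

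The other vascular genes were closer to the median. In Tom- with CCl4, Aqp1 rose by 1.01, Egfl7 by 1.36, Mmrn2 by 0.86, Robo4 by 1.18 and Ushbp1 by 1.07. The Mmrn2 call was kept in 7 of 19 alternatives (adjusted p up to 0.119), and it was lost without Tom- oil replicate 1 (0.84, adjusted p = 0.119), without Tom- oil replicate 2 (0.58, adjusted p = 0.0947) and without any 1 of the Tom- CCl4 libraries. Aqp1, a water channel that is also found in bile duct cells, had the highest level per length of the 39 in Tom- CCl4, with a mean of 54.3 ± 5.56 TPM (SD, n = 3), against 37.2 ± 7.28 TPM in Tom+ CCl4, 29 ± 4.94 TPM in Tom- oil and 30.5 ± 5.81 TPM in Tom+ oil. Aqp1 had -0.77 ± 0.19 (adjusted p = 0.0334) and Robo4, a guidance receptor that stabilizes vessels, had -0.91 ± 0.24 (adjusted p = 0.0394) in Tom+ against Tom- with CCl4, and both were called lower. Mmrn2 had -0.81 (adjusted p = 0.0873), called with the pair as a block (-0.8, adjusted p = 0.00499), Egfl7 had -0.58 (adjusted p = 0.0786) and Ushbp1 -0.48 (adjusted p = 0.23). Egfl7 overlaps another gene on the opposite strand with 127349 counts. Ramp2, a partner of the adrenomedullin receptor, ranged from 25.8 to 30.5 CPM over the 12 libraries, and its log2 fold change with CCl4 in Tom- was 0.09 (95% interval -0.08 to 0.27). It overlaps a gene on the same strand with 15444 counts.

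**Figure D3:**
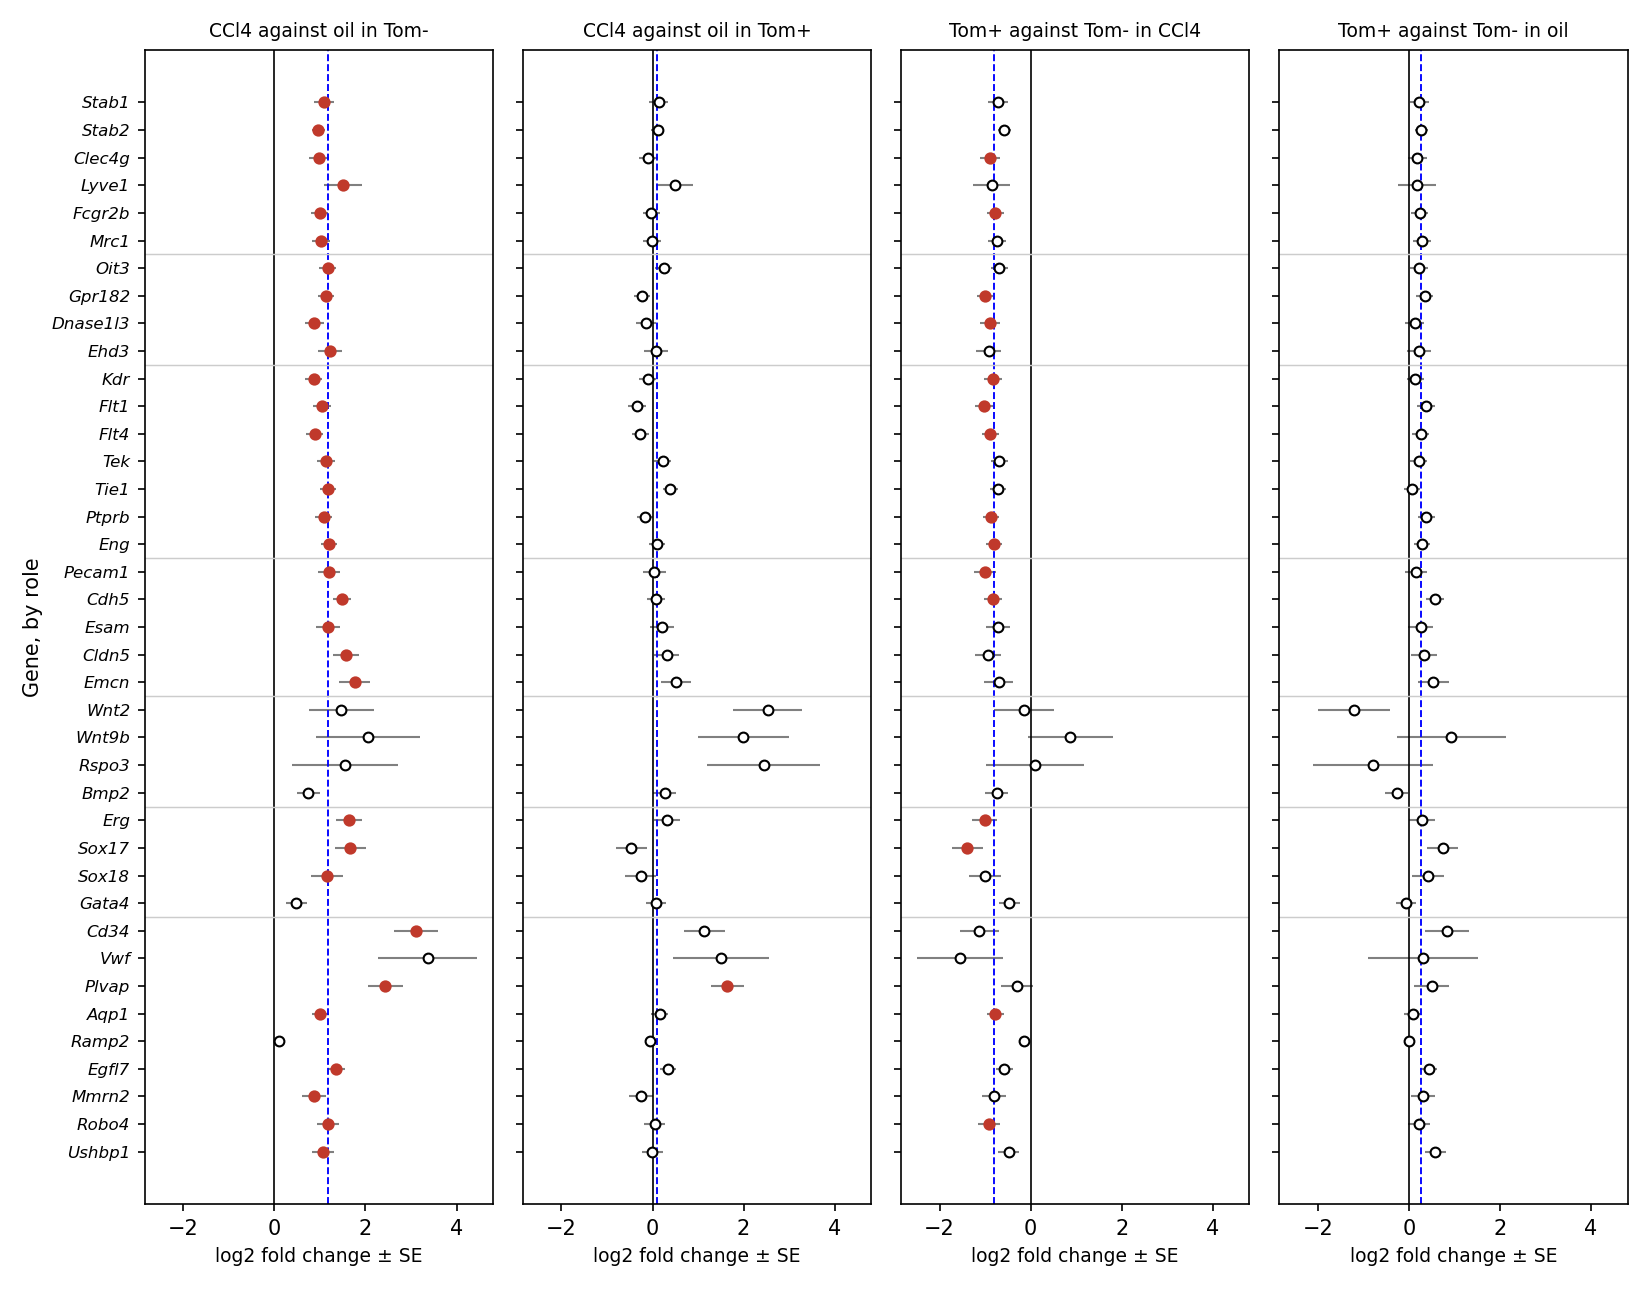
Log2 fold changes of the 39 genes (rows, grouped by role) in 4 comparisons, with bars of ± SE computed from edgeR's test. Filled red points were called (adjusted p under 0.05 and log2 fold change beyond 0.75), open points were not, and the dashed line is the median of the 39. For CCl4 against oil the points lie around 1.17 in Tom- and 0.10 in Tom+, with Cd34, Vwf and Plvap to the right of the median in both.

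The angiocrine ligands were tested in the same way. Of the 4, 0 were called between fractions with CCl4 or with oil, or between CCl4 and oil in either fraction. Wnt2 (ENSMUSG00000010797, mm10 chr6:17988940-18030585) was at 0.738, 0.194 and 0.163 CPM in Tom- oil, 0.0289, 0.0763 and 0.392 in Tom+ oil, 1.01, 0.940 and 1.01 in Tom- CCl4 and 1.06, 0.524 and 1.09 CPM in Tom+ CCl4. In both fractions every CCl4 library was above every oil library, and with CCl4 the fractions overlapped. The difference between fractions with CCl4 was -0.15 (95% interval -1.58 to 1.29), an interval that holds the median of the 39 genes. With CCl4 the log2 fold change was 1.47 (adjusted p = 0.175) in Tom- and 2.53 (adjusted p = 0.0528) in Tom+, and over the summed pairs 2.03 ± 0.37 (adjusted p = 0.0154). The call over summed pairs was lost without the 2 oil libraries (2.49, adjusted p = 0.0609), a fit in which some oil sums hold a single fraction. The oil library with the highest Wnt2 level, Tom- oil replicate 1, was one whose reporter went against its label.

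Wnt9b was near the floor, from 0 to 4 counts in Tom- oil, 2 to 10 in Tom+ oil, 2 to 15 in Tom- CCl4 and 4 to 36 in Tom+ CCl4, and all 4 groups overlapped. Rspo3, which amplifies Wnt signals by removing the inhibitors Rnf43 and Znrf3, was at 0, 0.155 and 0.204 CPM in Tom- oil, 0, 0 and 0.245 in Tom+ oil, 0.303, 0.221 and 0.570 in Tom- CCl4 and 0.0985, 0.611 and 0.501 CPM in Tom+ CCl4. For Wnt9b and Rspo3 the log2 fold changes with CCl4 were 2.05 ± 1.15 and 1.55 ± 1.17 in Tom- and 1.99 ± 1.0 and 2.44 ± 1.24 in Tom+, and 0 of these were called. Without Tom+ oil replicate 3, which leaves 2 Tom+ oil libraries with 0 counts of Rspo3, Rspo3 was called in Tom+ (adjusted p = 0.0296), and it was not called in the other 18 alternatives. Bmp2 had more counts, at 12.2, 9.73 and 13.4 CPM in Tom- oil, 8.45, 6.37 and 14.7 in Tom+ oil, 18.8, 23.6 and 16.8 in Tom- CCl4 and 10.2, 13 and 12.1 CPM in Tom+ CCl4. The Tom- CCl4 libraries were above all others, with 0.74 ± 0.25 (adjusted p = 0.0668) for CCl4 in Tom- and -0.74 ± 0.25 (adjusted p = 0.106) between fractions with CCl4. Per length, Bmp2 had a mean of 12.2 ± 2.44 TPM (SD, n = 3) in Tom- CCl4, against 0.962 ± 0.0415 TPM for Wnt2, 0.256 ± 0.119 TPM for Rspo3 and 0.0919 ± 0.0608 TPM for Wnt9b.

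**Figure D4:**
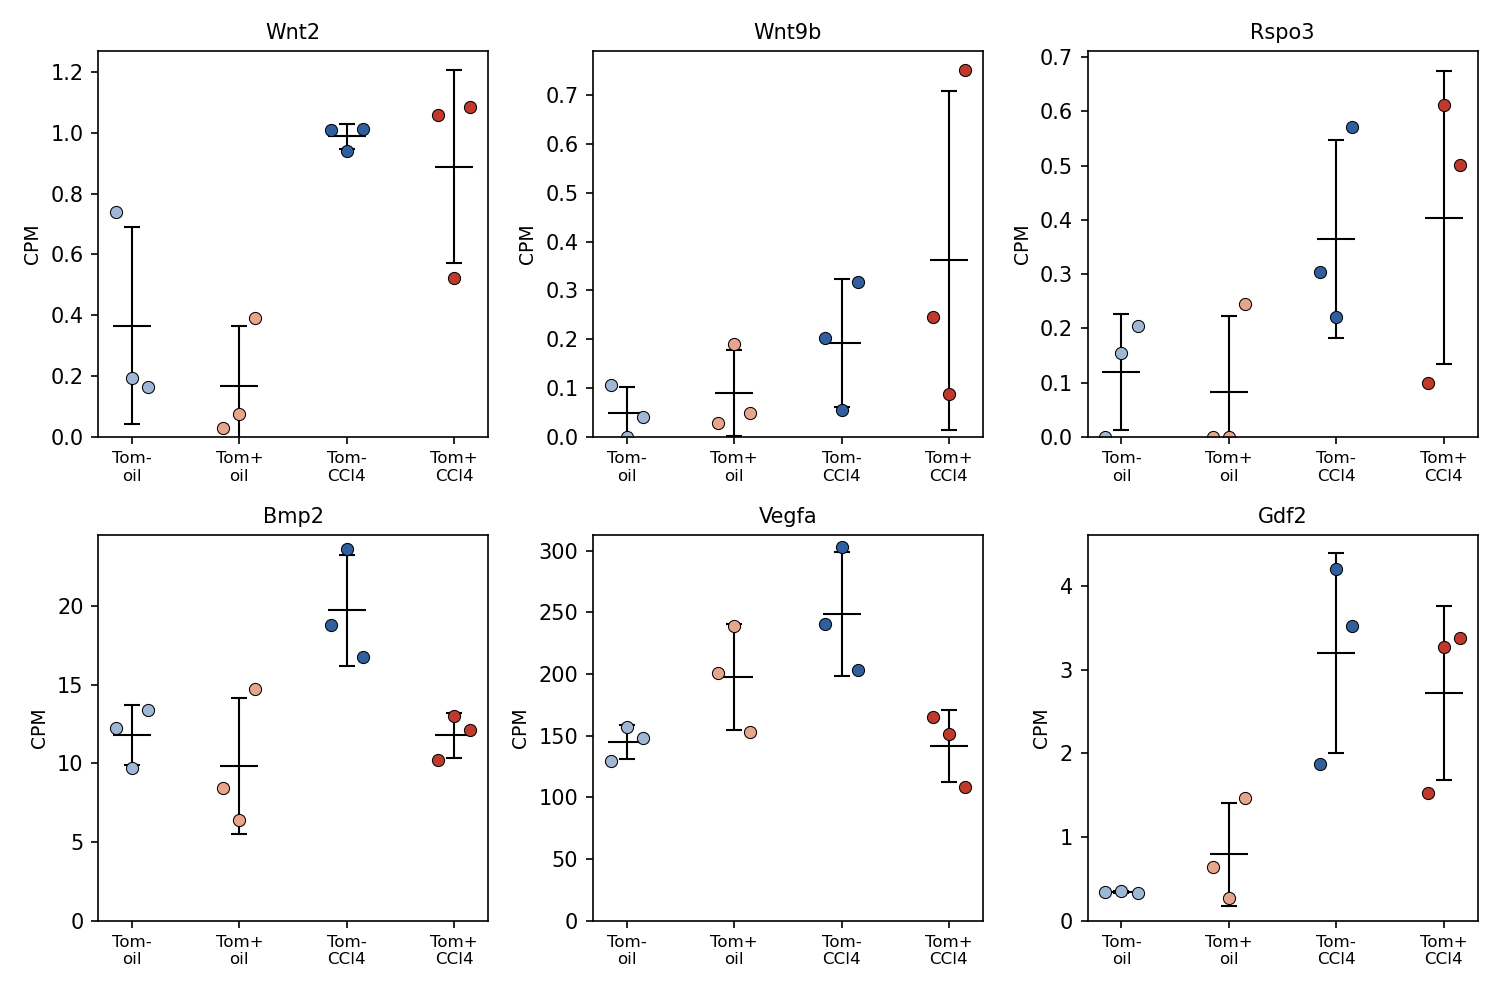
CPM of the 4 angiocrine ligands Wnt2, Wnt9b, Rspo3 and Bmp2 and of the ligands Vegfa and Gdf2, by group. Points are libraries in the order of replicates 1 to 3, and bars are mean ± SD (n = 3). The axis starts at 0, and the lower end of a bar that reaches below 0 is not shown. The means of Wnt2 and Gdf2 are higher in both CCl4 groups than in the oil groups, whereas those of Bmp2 and Vegfa are highest in Tom- CCl4.

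Ligands that act on the endothelium were described next, from a list of 10 of which 8 were tested. Vegfa, the growth factor bound by Kdr and Flt1 and made by hepatocytes among other cells, was at 130, 157 and 148 CPM in Tom- oil, 200, 239 and 153 in Tom+ oil, 240, 303 and 203 in Tom- CCl4 and 165, 151 and 108 CPM in Tom+ CCl4. With CCl4 every Tom+ library was below every Tom- library. It rose with CCl4 in Tom- by 0.78 ± 0.19 (adjusted p = 0.0175), was lower in Tom+ with CCl4 at -0.81 ± 0.19 (adjusted p = 0.0311), and had an interaction of -1.26 ± 0.27 (adjusted p = 0.0461). The rise in Tom- was lost without the 2 oil libraries (0.71, adjusted p = 0.0627), without Tom- oil replicate 1 (0.70, adjusted p = 0.0818) and without Tom- CCl4 replicate 2 (0.61, adjusted p = 0.0722). The call between fractions was lost without Tom- CCl4 replicate 1 or 2, without any of the Tom+ CCl4 libraries and with no expression filter, at adjusted p from 0.0501 to 0.133. The interaction call was lost in 12 of 18 alternatives, among them without the 2 oil libraries (-1.03, adjusted p = 0.152). Gdf2, a ligand of Eng made in the liver, was at 0.343, 0.349 and 0.327 CPM in Tom- oil, 0.636, 0.267 and 1.47 in Tom+ oil, 1.87, 4.2 and 3.53 in Tom- CCl4 and 1.53, 3.27 and 3.38 CPM in Tom+ CCl4. It rose by 3.23 ± 0.55 (adjusted p = 0.00275) in Tom- and 1.81 ± 0.5 (adjusted p = 0.0395) in Tom+. The Tom+ call of Gdf2 was kept in 10 of 19 alternatives, and among others it was lost without the 2 oil libraries (1.40, adjusted p = 0.124), without Tom+ oil replicate 1 (1.67, adjusted p = 0.154) and without Tom+ CCl4 replicate 3 (1.62, adjusted p = 0.134). Bmp10, of the same family, rose in Tom+ by 3.79 ± 0.82 (adjusted p = 0.0117), and Vegfd rose in Tom- by 1.59 ± 0.47 (adjusted p = 0.0339). These calls were kept in 19 and 15 of 19 alternatives. Bmp10 was near the floor in Tom+ oil, with 8, 0 and 4 counts, against 27, 53 and 79 counts in Tom+ CCl4, so that the size of its change is uncertain.

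A list of 24 other endothelial genes was set beside the 39. Between fractions with CCl4, 6 of the 24 were lower in Tom+ and 0 higher, against 1.74% and 0.222% of all genes, with a median of -0.78. The 6 were Ntn4 (-1.2), Bmp6 (-1.12), Dll4 (-1.06), Efnb2 (-0.89), Adgrf5 (-0.84) and Adgrl4 (-0.8). With the pair as a block 10 were lower, against 3.25% of all genes in that fit. Bmp6, the other endothelial inducer of hepcidin, was at 2.58, 1.53 and 2.86 CPM in Tom- oil, 2.01, 2.14 and 2.64 in Tom+ oil, 3.87, 4.42 and 4.31 in Tom- CCl4 and 2.08, 1.7 and 2.0 CPM in Tom+ CCl4, so that Tom- CCl4 stood apart. With CCl4, 17 of the 24 rose in Tom-, where 6.33% of all genes were called higher. The 5 with the largest change were Lyl1 (3.27), Thbd (2.52), Icam2 (1.72), Cd93 (1.53) and Tal1 (1.43). In Tom+, 2 rose, Thbd (2.28) and Myct1 (1.02), against 2.9% of all genes. Thbd encodes thrombomodulin, a membrane protein that binds thrombin. Over the summed pairs 4 rose, Thbd (2.4), Myct1 (1.19), Icam2 (1.17) and Cd93 (1.08), against 3.34% of all genes. The interaction was called for 1, Ntn4 (-1.5), and for 11 with the pair as a block, where 0.958% and 4.19% of all genes were called negative. Leaving out the 2 oil libraries, 14 of the 24 rose in Tom-, 1 in Tom+ and 2 over the summed pairs, of which some then hold a single fraction. The interaction was called for 0 without the 2 oil libraries. Of all genes, 4.32%, 2.09% and 1.91% were then called higher in Tom-, Tom+ and the summed pairs. Of the 17 calls in Tom-, 8 were kept in all 19 alternatives.

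Genes that receive or report the angiocrine signals in hepatocytes were then counted. Several of the Wnt targets, such as Glul, Cyp2e1 and Lgr5, are also markers of position in the liver lobule. The authors found Tom+ cells mainly near the central vein after CCl4. By their account, bulk RNA-seq could not separate the traits of these cells from that position. Differences in signal and in position therefore cannot be told apart in the values below. Of 19 Wnt targets, 0 were called between fractions with CCl4 in edgeR's test, with 7 at an unadjusted p under 0.05. For these 18 of 19 values were positive with a median of 0.99, where most endothelial values were negative. With the pair as a block 10 of the 19 were called higher in Tom+, against 0.736% of all genes. With oil, 17 of the 19 values were negative with a median of -0.82, and 0 were called in edgeR's test (2 at an unadjusted p under 0.05). With the pair as a block 5 were called lower, a comparison for which the share of all genes is not given. The interaction was called for 0 of the 19 (11 at an unadjusted p under 0.05). It was called for 14 higher with the pair as a block and for 8 higher without the 2 oil libraries, against 1.28% and 0.354% of all genes. With CCl4, 13 of the 19 rose in Tom+, where 2.9% of all genes were called higher. They were led by Sp5 (3.92), Lgr5 (3.21), Axin2 (2.99), Rhbg (2.97) and Tcf7 (2.84). Without the 2 oil libraries 15 rose, against 2.09% of all genes. Of the 13 calls, 6 were kept in all 19 alternatives, Axin2 and Tcf7 among them, whereas Sp5 was called in 9 (adjusted p up to 0.124), Lgr5 in 10 (adjusted p up to 0.122) and Rhbg in 11 (adjusted p up to 0.135). All 3 were lost without Tom+ oil replicate 1 or 3 and without any 1 of the Tom+ CCl4 libraries. In Tom-, Nkd1 (1.96) and Notum (1.21) rose and Oat (-2.6) fell, where 6.33% of all genes were called higher and 1.59% lower. Without the 2 oil libraries 1 rose and 3 fell, against 4.32% and 1.14% of all genes. Axin2, a direct target of beta-catenin, was at 2.53, 5.76 and 2.78 CPM in Tom- oil, 1.75, 4.5 and 1.64 in Tom+ oil, 6.12, 6.41 and 10.8 in Tom- CCl4 and 21, 17.5 and 24.4 CPM in Tom+ CCl4. The Tom+ CCl4 libraries were above all others. Of 14 tested genes for Wnt reception, 3 rose with CCl4 in Tom+, Lgr5 (3.21), Rnf43 (1.21) and Znrf3 (1.03), which are also in the list of targets, where 2.9% of all genes were called higher. In Tom-, 1 of the 14 was called, near the 6.33% of all genes: Wls (1.43), needed for Wnt secretion, whose call was kept in 13 of 19 alternatives and lost without any 1 of the Tom- libraries. Of 20 other Wnt and R-spondin ligands, 4 were tested and 0 called between fractions with CCl4 by edgeR, with 2 at an unadjusted p under 0.05 and 1 called higher in Tom+ with the pair as a block. Of 9 BMP targets, 3 rose with CCl4 in Tom-, Id3 (2.58), Hamp2 (2.33) and Smad7 (1.42), and 4 in Tom+, Hamp2 (2.48), Hamp (1.85), Bambi (1.17) and Smad7 (1.01). Of all genes, 6.33% were called higher in Tom- and 2.9% in Tom+. When the 2 oil libraries were left out, 2 BMP targets rose in Tom- and 1 in Tom+, against 4.32% and 2.09% of all genes. Between fractions with CCl4, 0 of the 9 BMP targets and 0 of 11 BMP receptors and SMADs were called by edgeR, with 0 and 2 at an unadjusted p under 0.05.

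Finally, the genes most like the 39 were sought by the correlation of log2 CPM with their mean standardized profile over the 12 libraries. The 5 genes outside the 39 with the highest Pearson r were Adgrf5 (0.98), Igfbp7 (0.976), Fgd5 (0.973), Amotl1 (0.972) and Plxnc1 (0.97). Among the 39, the correlation of a gene with the mean of the other 38 was highest for Eng (0.992), Tek (0.991) and Stab2 (0.988) and lowest for Wnt9b (0.337), Ramp2 (0.490), Gata4 (0.559), Wnt2 (0.568) and Rspo3 (0.582). These values are a description over 12 libraries in 4 groups that share preparation and depth.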

How the data were processed

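Sorted cells were sequenced as polyA, strand-specific libraries. The authors filtered reads with fastp (v0.23.2) and mapped these with HISAT2 (v2.1.0) on mm10. The deposited table holds expected counts, which the authors left unnormalized, and the counting program and its strand setting are not given in the sources used here. Of the non-zero values 30.4% to 32.9% per library were not whole, so that all were rounded, whereas the design had assumed whole counts. Deposited feature lengths were used for TPM. Of 54839 features, 54723 (99.8%) were matched to a symbol.

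The 39 genes, the gene lists and the tests were chosen with earlier results of these data known. The analysis ran edgeR (v4.0.16) under R (v4.3.3), with TMM, filterByExpr and the robust quasi-likelihood test in 1 fit of 12 libraries with a coefficient per group, and Benjamini-Hochberg adjustment over the 17121 genes tested. Called genes had an adjusted p under 0.05 and a log2 fold change beyond 0.75. SE were computed from the log2 fold change and the F value of each test, and 95% intervals from these SE. Both are approximate, above all for genes with low counts. Summed pairs were fitted over 17743 genes. Correlations used log2 CPM with a prior count of 2. Scripts were tested on simulated counts.

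Same-numbered Tom+ and Tom- libraries deviated from their group means together (r = 0.247, 0.187 and 0.401 with CCl4 and 0.205, 0.231 and 0.318 with oil, over 17121 genes), so the replicate numbers of the labels were taken to pair them. No source used here says whether they came from the same mouse. Between oil and CCl4 the libraries share only a number. Alternatives were this block, RLE, no filter, DESeq2 (v1.42.0), adjusted p alone, the 6 libraries compared, and leaving out libraries. Adjusted p alone cannot lose a call, and leaving out libraries outside a comparison keeps every library compared, so that tallies of alternatives are not tallies of equal checks. Named were all 39 genes, up to 5 called genes per other list and comparison by size of change, and the 5 genes most correlated with the 39. The genes given per library were picked after their values were seen. Depth was 37568584 to 75331424 counts per library. Plots came from matplotlib (v3.10.9) under Python (v3.11.15).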

Additional observations from a re-analysis of the deposited data

Results flagged for a closer look

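The difference between Tom+ and Tom- with CCl4 was itself different from that with oil, by edgeR's interaction test, for 7 of the 39 genes and for Ntn4 and Vegfa. The log2 values (Tom+ against Tom- with CCl4, minus the same with oil, ± SE) were Gpr182 -1.35 ± 0.25 (adjusted p = 0.026), Flt1 -1.39 ± 0.28 (adjusted p = 0.0312), Flt4 -1.16 ± 0.26 (adjusted p = 0.0487), Ptprb -1.25 ± 0.26 (adjusted p = 0.0419), Eng -1.09 ± 0.25 (adjusted p = 0.0487), Cdh5 -1.41 ± 0.28 (adjusted p = 0.0341), Sox17 -2.13 ± 0.48 (adjusted p = 0.0477), Ntn4 -1.5 ± 0.34 (adjusted p = 0.0485) and Vegfa -1.26 ± 0.27 (adjusted p = 0.0461). All 9 genes had a negative value with CCl4 and a positive value with oil. Each was called in 6 to 13 of 18 alternatives. The contrast rests on oil libraries of which 2 had a reporter level against their label.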

How the results depend on the processing

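The number of the 39 genes called for CCl4 in Tom- stayed between 29 and 33 across settings that kept all libraries or left out 2, and was 27 to 32 with each library left out in turn. Between fractions with CCl4 it was 13 with no filter and 21 by DESeq2, 22 with the block and 0 to 17 with each library left out, and with oil it was 0 throughout. For CCl4 in Tom+ it was 2 with no filter, 2 by DESeq2, 2 with the number as a block, 0 with 6 libraries, 0 without the 2 oil libraries and 0 to 3 with each library left out. The interaction gave 26 by DESeq2, 32 with the block, 12 without the 2 oil libraries and 0 to 15 with each library left out. Summed pairs gave 13 by adjusted p alone, 1 without the 2 oil libraries (where some oil sums hold a single fraction) and 2 to 13 with each replicate left out. The cause of these differences was not tested. The share of all genes called moves with the setting as well. Between fractions with CCl4, 1.74% were called lower in the main fit and 3.25% with the block. For no filter, DESeq2, adjusted p alone, the number as a block, the 6 libraries compared and single libraries left out, the share of all genes is not given. Those counts therefore show how calls of the 39 genes moved, and not how they compare with all genes.

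Signs were followed for all the genes for CCl4 in Tom-, between fractions with CCl4 and over summed pairs. In the other comparisons they were followed only for the angiocrine ligands and for called genes. Among those followed, signs turned for genes near 0 or near the floor, none of them called. Others turned as well: for CCl4 in Tom+, the 5 junction and adhesion genes had a median of 0.207, and -0.00965 without the 2 oil libraries. Between fractions with CCl4, Rspo3 had -0.0732 with the block, and with each library left out Rspo3 ranged from -0.33 to 0.59, Wnt2 from -0.30 to 0.12 and Wnt9b from -0.18 to 1.45. With oil, Wnt2 had 0.0895 without the 2 oil libraries, and Wnt9b ranged from -0.27 to 2.02 with each left out. For the interaction without the 2 oil libraries, Wnt2 had -0.25 and Wnt9b 0.0565, and Wnt9b ranged from -1.14 to 1.14 with each left out. Over summed pairs, Ramp2 had -0.00286 with no filter and ranged from -0.0212 to 0.0236 with each left out. Between fractions with CCl4 the pair as a block added 7 calls, each named in the text with its gene, and removed 0, and for the interaction it added 25 and removed 0. With oil it changed 0 calls. Same-numbered oil and CCl4 libraries did not deviate together in every pair (r = 0.00898, 0.0483 and 0.0368 in Tom- and 0.0899, 0.0182 and 0.226 in Tom+), and not every library correlated best with its own number. With the number as a block in these comparisons, Vwf was added in Tom- (33 called), Wnt2 in Tom+ and Tie1 over summed pairs (9 called). Of the Kupffer cell markers 11 were called higher in Tom- and 3 over summed pairs, against 0 and 0 without the block. The share of all genes called with the number as a block is not given. Low counts limited Wnt9b, Rspo3, Vwf and, in the oil libraries, Bmp10.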
